A study of Mus musculus with 6 samples.

Results

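The mRNAs of the proteasome genes were examined in liver RNA from 24 h fasted mice with and without *Pak4* in hepatocytes. Members were taken by symbol and gene type, as every protein-coding row whose symbol is Psm, one letter from a to g and a number, which gave 50 of the 45777 rows in the gene table. The rule itself uses no measured value. The 3 WT mice carried *Pak4* flox/flox without Cre and the 3 LKO mice were Alb-Cre; *Pak4* flox/flox, all of them C57BL/6 males aged 8 weeks, with 1 RNA-seq library per mouse. The albumin promoter drives Cre in hepatocytes, so that the other cells of the liver keep the floxed gene, and both genotypes carry the floxed alleles. The study's methods describe the floxed controls as littermates, and the labels name no litter. *Pak4*, which encodes the kinase removed in LKO mice, was at 3.59, 3.21 and 4.09 CPM (read counts after TMM scaling of the libraries) in WT mice 1, 2 and 3 and at 1.93, 1.49 and 3.22 CPM in LKO mice 1, 2 and 3. The library labelled LKO 3 lay within the WT range, and *Pak4* did not pass the test (LKO over WT log2 fold change −0.71, SE 0.31, adjusted p = 0.101), although it was called lower with total counts (−1.54, adjusted p = 0.0056).

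The proteasome is the protease that degrades ubiquitin-tagged proteins. Its barrel-shaped core particle is a stack of alpha and beta rings, with the cutting sites on the beta subunits Psmb5, Psmb6 and Psmb7, and the regulatory particle on its end binds, unfolds and feeds in substrates with a ring of Psmc ATPases and the Psmd subunits. Interferon-inducible Psmb8, Psmb9 and Psmb10 can take the places of Psmb5, Psmb6 and Psmb7 in newly built cores, which are then called immunoproteasomes and supply peptides for antigen presentation, while the assembly factors help to build the complex without staying in it.

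The 50 genes were all matched in RefSeq (assembly GRCm38.p6) and lay on 16 chromosomes. *Psmb9*, *Tap1*, *Psmb8* and *Tap2* lie in this order on chromosome 17 between 34182030 and 34216321, where *Tap1* and *Tap2* encode the peptide transporter of antigen presentation, and *Psme1* and *Psme2* are neighbours on chromosome 14 (55578494 to 55591101), as are *Psmb5* and *Psmb11* (54614120 to 54629556). The stretch between the divergent starts of *Psmb9* and *Tap1*, which both genes share, is shown on the strand of *Psmb9* from RefSeq GRCm38.p6 (chr17:34187331-34187555, minus strand), with its CCAAT box, read here on the opposite strand, in capitals.
Psmb9-Tap1: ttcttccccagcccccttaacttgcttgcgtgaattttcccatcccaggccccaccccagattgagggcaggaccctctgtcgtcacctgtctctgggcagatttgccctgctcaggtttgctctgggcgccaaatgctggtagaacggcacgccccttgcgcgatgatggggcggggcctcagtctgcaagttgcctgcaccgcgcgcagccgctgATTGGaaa

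A stretch of 80 bases upstream of a transcript start in the RefSeq promoter table is given for 4 members with a single ETS core motif in it, CCGGAA or its reverse complement TTCCGG in capitals. For *Psma6* and *Psmd2* this start lies inside the span that RefSeq gives for the gene. They are 3 genes called higher in LKO mice below, the core subunit *Psma6* (chr12:55398735-55398814, plus strand), the ATPase *Psmc6* (chr14:45329687-45329766, plus strand) and the lid subunit *Psmd6* (chr14:14120948-14121027, minus strand), and 1 called lower, the scaffold subunit *Psmd2* (chr16:20651572-20651651, plus strand).
Psma6: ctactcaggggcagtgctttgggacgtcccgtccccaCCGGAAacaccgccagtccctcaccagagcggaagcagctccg
Psmc6: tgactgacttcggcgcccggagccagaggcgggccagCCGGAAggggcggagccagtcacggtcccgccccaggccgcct
Psmd6: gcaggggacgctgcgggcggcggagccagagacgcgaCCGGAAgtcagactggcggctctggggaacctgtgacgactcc
Psmd2: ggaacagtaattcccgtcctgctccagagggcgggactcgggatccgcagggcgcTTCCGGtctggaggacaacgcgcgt

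CCGGAA, searched on both strands, was present in 48.9% of 45 promoter windows of 42 member genes (250 bases before to 50 after a RefSeq transcript start), against 14.9% of all 32851 windows of the same length. It was held by 10 of the 18 member genes with a window that were called higher in LKO mice, by 3 of the 7 called lower and by 7 of the 15 called neither way. Also searched on both strands, the CCAAT box (CCAAT) was in 33.3% of member windows against 37.4% of all windows. The antioxidant response element (TGACNNNGC) was in 13.3% against 12.4%.

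Of the 50 genes, 48 had at most 1 zero count among the 6 libraries and were tested among 18636 genes. *Psmb11*, the catalytic subunit of the thymus proteasome, had 0 counts in all 6 libraries, which allows up to 3 counts per library. *Psmc3ip*, which carries a Psm symbol but encodes a factor of meiotic recombination, had 12, 29 and 27 counts in WT mice against 0 in each LKO mouse. With 3 counts per library as the floor, its mean CPM was at least 3.92-fold lower in LKO mice, without a test.

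On TMM-scaled counts, 21 members were called higher and 8 lower in LKO mice, and 19 were called neither way (adjusted p under 0.05). Over all genes tested, 19.6% were called higher and 20.5% lower, 40.1% in all. The median log2 fold change was 0.38 over the 48 members and −0.04 over all genes tested. The called genes were split by role. In the core particle 12 of 14 constitutive subunits were called higher, with a median of 1.25, whereas all 3 immunoproteasome subunits were called lower, with a median of −1.05. In the regulatory particle 7 of 17 subunits were called higher and 1 lower, with a median of 0.21. Groups that did not overlap were seen for 26 members with LKO mice above and 11 with LKO mice below WT mice, where 26.1% and 27.9% of all genes tested did so.

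The calls depended on how the libraries were scaled. The 6 libraries held 45934632 to 59576437 counts. TMM scaling factors ran from 1.28 to 1.43 in WT mice against 0.639 to 0.816 in LKO mice, and protein-coding genes made up 65.9 to 69.2% of all TPM in WT mice against 40.4 to 48.8% in LKO mice. When total counts replaced TMM, the median of all genes tested moved from −0.04 to −0.90, and 9 members were called higher and 24 lower, beside 6.26% and 51.4% of all genes tested. With limma on log2(TPM + 1), 3 were called higher and 37 lower, beside 2.43% and 71.5%, with a median of −1.05 over the members and −0.79 over all genes tested. A change of library scaling alone shifts all genes nearly alike, so distances from the median of all genes hardly move with it. With TMM the member median lay 0.41 above the median of all genes tested. After correction for both GC content and gene length it lay 0.11 above, and with limma on TPM rescaled to protein-coding genes the medians were −0.57 and −0.56. The median of the constitutive core lay 1.29 above that of all genes with TMM, 0.71 with the correction and 0.85 with the rescaled TPM. For the immunoproteasome subunits the median lay at −1.01, −1.22 and −1.33 from it. The limma settings also add a constant to each TPM, which shrinks the changes of genes at low TPM, so their distances depend on this constant too. Without rescaling, the member median lay below that of all genes tested with log2(TPM + 1) and above it with log2(TPM + 0.1). Over 10 scalings and corrections, 3 members were called higher in each (*Psma3*, *Psmc6* and *Psmd6*) and 3 lower in each (*Psmb2*, *Psmb9* and *Psmb10*). The fold change was above 0 in each of the 10 for 8 members and below 0 for 12, while its sign differed between settings for 28. "Higher" and "lower" below refer to TMM-scaled counts unless another scale is named.

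**Figure D1:**
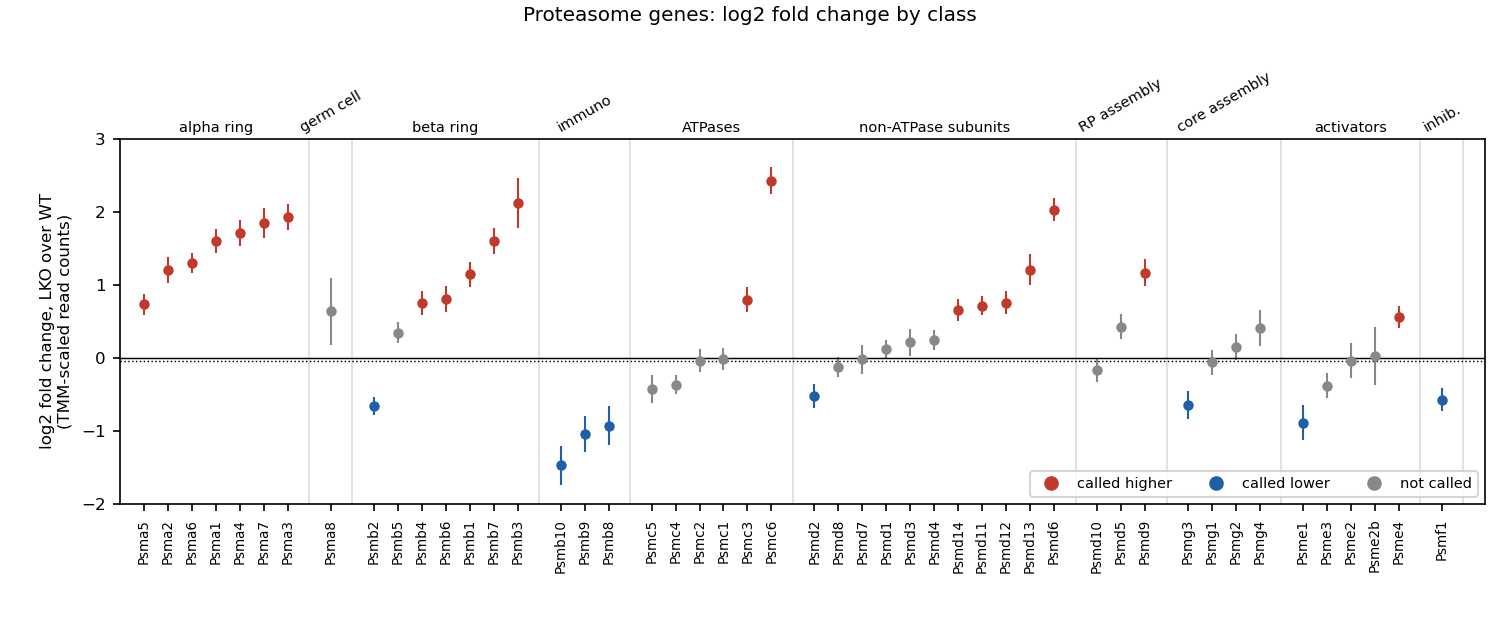
LKO over WT log2 fold change (y axis, TMM-scaled read counts, bars show 1 SE, n = 3 mice per genotype) for the 48 members tested, ordered by class, with the dotted line at the median of all genes tested (−0.04). The 7 alpha ring genes lie between 0.73 and 1.92 and the 3 immunoproteasome genes between −1.47 and −0.93. When total counts replace TMM, every point moves down, and *Psma5* lies at −0.14.

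All 7 alpha ring genes, which encode the gate of the core, were called higher, beside 19.6% of all genes tested. Their median log2 fold change was 1.6. *Psma3* had the largest change of the ring. It was at 106, 94.7 and 105 CPM in WT mice and at 346, 468 and 346 CPM in LKO mice. Each LKO mouse was far above the WT mice, and the fold change was 3.8 (log2 1.92, SE 0.18, adjusted p = 0.000313; with total counts 1.04, adjusted p = 0.000528). *Psma3* was the member whose count per FPKM, a relative transcript length, differed between genotypes. The quotient was 2626 to 2646 in WT mice against 1410 to 1760 in LKO mice, a ratio of 0.593, against 0.99 to 1.05 for the other 47 members, and the span of *Psma3* overlaps a lncRNA gene.

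*Psma5* had the smallest change of the ring, with 55.7, 48.1 and 51.0 CPM in WT mice against 77.3, 90.9 and 88.7 CPM in LKO mice. The groups did not overlap and the rise was 1.66-fold (log2 0.73, SE 0.14, adjusted p = 0.00419), but with total counts the change was −0.14 (adjusted p = 0.452). With total counts 5 of the 7 alpha genes were called higher and 0 lower, beside 6.26% and 51.4% of all genes tested. The spans of 14 members, *Psma3*, *Psma4* and *Psma6* of this ring among them, overlap another RefSeq gene, and reads of such a pair may be assigned to either, since the use of strand is not given in the sources used here. *Psma8*, the germ-cell form of an alpha subunit, was close to the limit, at 0.565 to 1.65 CPM in WT mice against 1.23 to 2.64 CPM in LKO mice, which overlapped (adjusted p = 0.30). The germ cell markers *Sycp3* and *Ddx4* summed to at most 0.182 CPM in any library.

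In the constitutive beta ring 5 of 7 genes were called higher and 1 lower, beside 19.6% and 20.5% of all genes tested. The median of the ring was 0.81. With total counts 2 were called higher and 2 lower, with a median of −0.07, beside 6.26% and 51.4%. After correction for GC content and gene length together, 4 were called higher and 1 lower, with a median of 0.46, beside 17.2% and 17.9%. *Psmb3*, a beta subunit with no cutting site, rose most and had the largest SE of the ring. It was at 57.8, 58.4 and 58.5 CPM in WT mice and at 201, 407 and 149.5 CPM in LKO mice. LKO mouse 2 stood out, and the fold change of 4.33 (log2 2.12, SE 0.34, adjusted p = 0.00199; with total counts 1.19, adjusted p = 0.00542) was between 1.59 and 2.38 on the log2 scale when each mouse was left out in turn.

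*Psmb2* went the other way from its ring. This subunit without a cutting site was at 43.2, 41.6 and 41.3 CPM in WT mice and at 27.4, 26.2 and 25.9 CPM in LKO mice. Both groups were tight and did not overlap, and *Psmb2* was 1.59-fold lower in LKO mice (log2 −0.67, SE 0.12, adjusted p = 0.00359; with total counts −1.53, adjusted p = 0.000201).

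The catalytic subunits of the constitutive core differed among themselves. *Psmb7*, with the trypsin-like activity, was at 109.5, 93.9 and 100.1 CPM in WT mice and at 271, 375 and 275 CPM in LKO mice. All LKO mice were above all WT mice, a 3.03-fold rise (log2 1.6, SE 0.18, adjusted p = 0.000492; with total counts 0.72, adjusted p = 0.00358). *Psmb6*, with the caspase-like activity, was at 70.6, 55.2 and 63.2 CPM in WT mice and at 106, 132 and 92.6 CPM in LKO mice. It was higher by 1.75-fold without overlap (log2 0.81, SE 0.18, adjusted p = 0.00798), whereas the log2 difference was −0.07 with total counts (adjusted p = 0.715). *Psmb5*, with the chymotrypsin-like activity, was at 43.8, 41.5 and 42.3 CPM in WT mice and at 51.5, 62.1 and 48.6 CPM in LKO mice. The groups did not overlap, but the difference did not pass the test (log2 0.34, SE 0.14, adjusted p = 0.0869), and with total counts it was −0.53 (adjusted p = 0.0117).

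The 3 immunoproteasome subunits were called lower in LKO mice with TMM and with total counts, beside 20.5% and 51.4% of all genes tested. *Psmb10*, the counterpart of Psmb7, was at 21.4, 24.4 and 29.4 CPM in WT mice and at 8.59, 12.6 and 6.03 CPM in LKO mice. Every LKO mouse was below every WT mouse, and *Psmb10* was 2.78-fold lower (log2 −1.47, SE 0.27, adjusted p = 0.00322; with total counts −2.36, adjusted p = 0.000149). *Psmb9*, the counterpart of Psmb6, was at 10.8, 14.5 and 12 CPM in WT mice and at 5.86, 7.94 and 4.28 CPM in LKO mice. It was 2.06-fold lower without overlap (log2 −1.05, SE 0.25, adjusted p = 0.0104; with total counts −1.94, adjusted p = 0.000314). *Psmb8*, the counterpart of Psmb5, was at 28.4, 27.9 and 24.8 CPM in WT mice and at 14.6, 19.6 and 8.56 CPM in LKO mice. It was lower by 1.90-fold without overlap (log2 −0.93, SE 0.27, adjusted p = 0.0254; with total counts −1.82, adjusted p = 0.000517). For *Psmb8* the call was lost without WT mouse 1 (adjusted p = 0.0655), WT mouse 2 (0.0603) or LKO mouse 1 (0.0550) and after a correction for GC content (log2 −0.60, adjusted p = 0.118).

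Ratios within a library, which do not depend on how libraries are scaled to each other, were formed between each immunoproteasome subunit and its constitutive counterpart. The TPM ratio of *Psmb10* over *Psmb7* was 0.148, 0.195 and 0.221 in WT mice against 0.0238, 0.0252 and 0.0165 in LKO mice. The mean was 0.188 ± 0.0372 in WT against 0.0218 ± 0.00465 in LKO mice (SD, n = 3 each), 8.63-fold lower in LKO mice by the difference of mean log2 ratios. Every LKO value was below every WT value (exact permutation test, two-sided, p = 0.1, the lowest that 3 against 3 mice allow, and 0.1 after Benjamini-Hochberg adjustment over the 3 ratios).

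*Psmb9* over *Psmb6* was 0.169, 0.293 and 0.205 in WT mice against 0.0653, 0.0679 and 0.0532 in LKO mice, lower by 3.5-fold. *Psmb8* over *Psmb5* was 0.462, 0.479 and 0.418 in WT mice against 0.202, 0.225 and 0.125 in LKO mice, lower by 2.53-fold. Neither ratio overlapped between the genotypes, and the exact permutation test gave the same p = 0.1 for each, which cannot pass 0.05 in this design. Together, the immunoproteasome subunits made up 18.1, 22.4 and 20.7% of the summed TPM of the 6 catalytic subunits in WT mice against 5.39, 5.52 and 3.67% in LKO mice. Transcript GC content was alike within 2 of the pairs, 55.8% and 56.6% for *Psmb8* and *Psmb5* and 55.3% and 55.8% for *Psmb9* and *Psmb6*, and differed in the third, 56.5% for *Psmb10* and 48.7% for *Psmb7*.

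**Figure D2:**
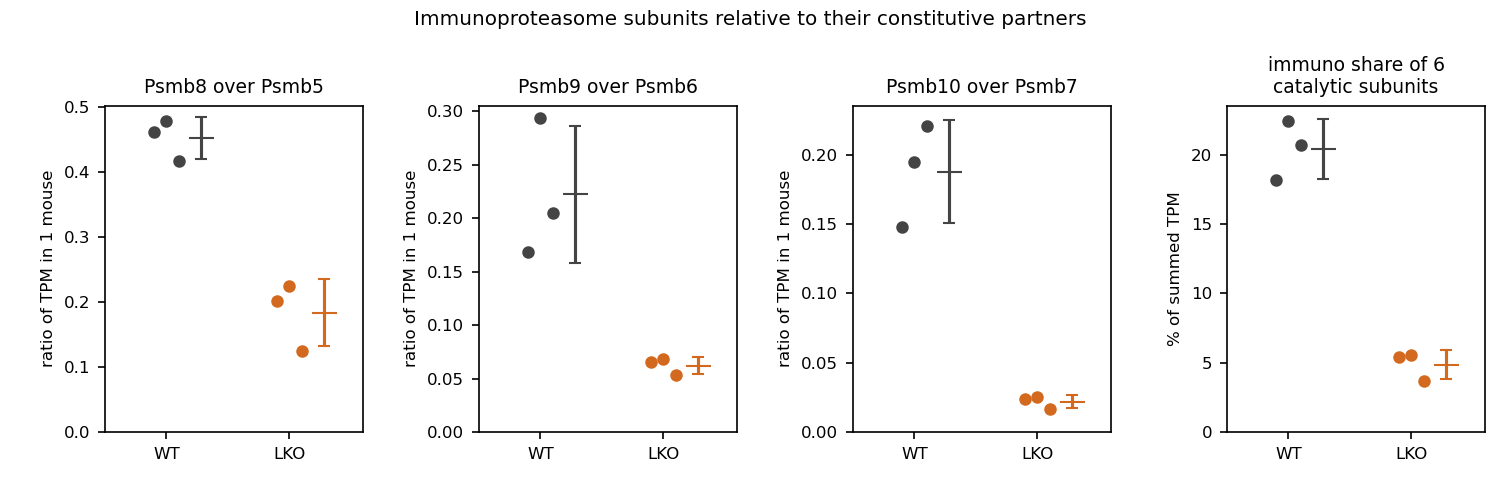
TPM ratio of each immunoproteasome subunit to its constitutive counterpart and, at the right, the share of the immunoproteasome subunits in the summed TPM of the 6 catalytic subunits (%), with 1 point per mouse and mean ± SD (n = 3). The share had a mean of 20.4% in WT against 4.86% in LKO mice, and no LKO point reaches a WT point in any panel.

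Genes of antigen processing and interferon response, the setting in which immunoproteasome subunits are known to be made, were read from the same test. Of 17 tested, 11 were called lower and 0 higher, with a median of −1.08, beside 20.5% of all genes tested called lower. With total counts 17 were called lower, beside 51.4% of all genes tested. *Tap1*, which shares the stretch of sequence shown above with *Psmb9*, was at 27.9, 29.9 and 26.6 CPM in WT mice and at 7.52, 10.2 and 10.3 CPM in LKO mice, a fall of 1.59 on the log2 scale (with total counts −2.47). *Cxcl10*, an interferon-induced chemokine, had the largest change of the list, with 4.40, 10.4 and 7.86 CPM in WT mice against 0.522, 0.545 and 0.173 CPM in LKO mice (log2 −4.21, SE 0.48, adjusted p = 0.000491; with total counts −5.09). *Ifng* itself had 5, 7 and 7 counts in WT mice against 0 in each LKO mouse and was not tested.

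Immunoproteasome subunits are abundant in leukocytes, so leukocyte markers were read beside them. Of the 10 markers, 2 were called lower (*Cd8a* and *Nkg7*) and 0 higher, with a median of −0.49, beside 20.5% of all genes tested called lower, and none was at 0 in all libraries. Their summed level was 67.2 to 92.8 CPM in WT mice against 45.2 to 67.3 CPM in LKO mice, which just overlapped. With total counts 6 of these 10 markers were called lower and 0 higher, beside 51.4% of all genes tested called lower. The 7 markers of Kupffer cells and macrophages summed to 271 to 413 CPM in WT mice against 438 to 849.7 CPM in LKO mice. Of these 7, 3 were called higher and 1 lower, beside 19.6% and 20.5% of all genes tested. With total counts 2 were called higher and 3 lower, beside 6.26% and 51.4%. The part of these cells in the immunoproteasome result was not tested, and in bulk RNA fewer cells of a type and less RNA per cell cannot be told apart. The hepatocyte markers were abundant in every library (29833 to 34153 CPM summed in WT against 83594 to 103104 CPM in LKO mice). *Alb* alone had a mean of 21066 CPM in WT against 69372 CPM in LKO mice. Of 5, 3 were called higher and 1 lower, beside 19.6% and 20.5% of all genes tested. *Ttr* was the 1 called lower (log2 −1.35), and *Serpina1a* was called neither way. With total counts 3 were called higher and 2 lower, beside 6.26% and 51.4%.

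The ATPases of the regulatory particle did not move as a ring. Of 6, 2 were called higher and 0 lower, with a median of −0.03, beside 19.6% and 20.5% of all genes tested. *Psmc6* had the largest rise of all 48 members. It was at 74.3, 67.6 and 84.0 CPM in WT mice and at 345, 464 and 406 CPM in LKO mice, without overlap, a fold change of 5.37 (log2 2.43, SE 0.18, adjusted p = 0.000212; with total counts 1.55, adjusted p = 0.000138). *Psmc5* was at the other end, with 34.3, 25.9 and 29.5 CPM in WT mice against 20.3, 18.3 and 28.1 CPM in LKO mice. LKO mouse 3 lay within the WT range, and *Psmc5* did not pass the test (log2 −0.43, SE 0.20, adjusted p = 0.117), although it was called lower with total counts (−1.27, adjusted p = 0.00205). Both gene products sit in the same ring.

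Of the 11 non-ATPase subunits of base and lid, 5 were called higher and 1 lower, beside 19.6% and 20.5% of all genes tested. Their median was 0.25. *Psmd6*, a lid subunit, was at 57.6, 53.7 and 59.9 CPM in WT mice and at 215, 266 and 217 CPM in LKO mice. The groups lay far apart, a rise of 4.08-fold (log2 2.03, SE 0.16, adjusted p = 0.000215; with total counts 1.15, adjusted p = 0.000276). *Psmd2*, a large scaffold of the base that receives ubiquitin shuttles, was at 139.7, 104 and 134 CPM in WT mice and at 88.5, 79.3 and 95.9 CPM in LKO mice. It was 1.43-fold lower without overlap (log2 −0.52, SE 0.17, adjusted p = 0.0366; with total counts −1.37, adjusted p = 0.000588). This call was lost without WT mouse 1 (adjusted p = 0.145), WT mouse 3 (0.132), LKO mouse 1 (0.0788) or LKO mouse 2 (0.105), and after the correction for GC content (0.123). *Psmd14*, the deubiquitinase of the lid, was among the 5 called higher (log2 0.66; with total counts −0.22, adjusted p = 0.248), and the ubiquitin receptor *Psmd4* was not called.

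**Figure D3:**
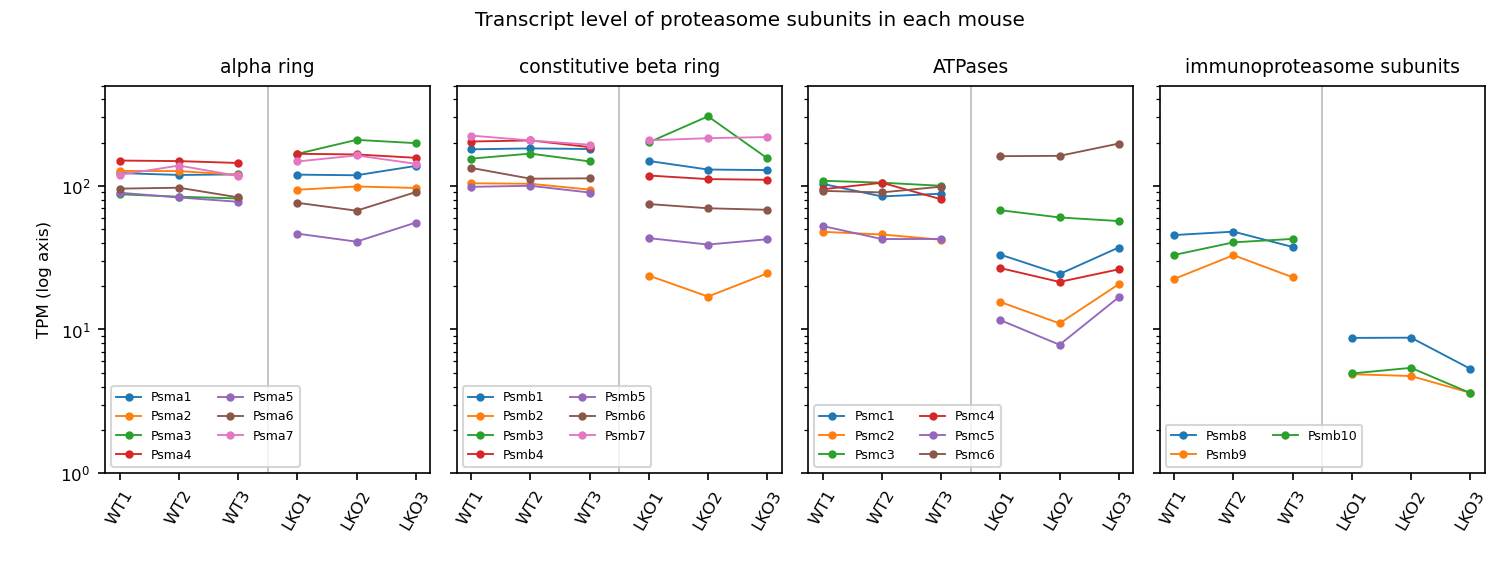
TPM (log axis) of the alpha ring, constitutive beta ring, ATPase and immunoproteasome genes in each of the 6 mice, with lines joining the values of 1 gene within a genotype. Within WT mice the 6 ATPases stay within 2.47-fold of each other, while in LKO mice *Psmc6* (161 to 197 TPM) stands 11.8 to 20.7-fold above *Psmc5* (7.83 to 16.8 TPM).

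Of the 7 assembly factors 2 were called, beside 40.1% of all genes tested. Of the 4 that build the core, *Psmg3* was called lower and none higher, and of the 3 that build the regulatory particle, *Psmd9* was called higher (log2 1.16; with total counts 0.31, adjusted p = 0.252) and *Psmd5* and *Psmd10* neither way. *Psmg3* was at 8.69, 7.36 and 6.91 CPM in WT mice and at 5.77, 4.39 and 4.56 CPM in LKO mice, without overlap (1.56-fold lower, log2 −0.64, SE 0.19, adjusted p = 0.0289; with total counts −1.49, adjusted p = 0.00122). The call was lost without WT mouse 1 (adjusted p = 0.115), WT mouse 2 (0.0626), WT mouse 3 (0.0559), LKO mouse 2 (0.0840) or LKO mouse 3 (0.0624). *Psmg4*, its partner in one of the chaperone pairs of the core, was at 2.13, 2.28 and 2.42 CPM in WT mice and at 2.75, 3.84 and 2.49 CPM in LKO mice, and was not called (log2 0.41, SE 0.25, adjusted p = 0.224; with total counts −0.48).

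Of the 5 genes for other activators of the core, 1 was called higher and 1 lower, beside 19.6% and 20.5% of all genes tested. *Psme1*, a subunit of the interferon-inducible PA28 ring that opens the core gate, was at 52.9, 45.1 and 51.1 CPM in WT mice and at 25.3, 37.0 and 18.5 CPM in LKO mice. It was 1.85-fold lower without overlap (log2 −0.89, SE 0.24, adjusted p = 0.0186; with total counts −1.78, adjusted p = 0.000237). Its ring partner and neighbour on the chromosome, *Psme2*, was at 49.7, 44.2 and 48.4 CPM in WT mice and at 48.2, 60.4 and 30 CPM in LKO mice. These groups overlapped (log2 −0.04, adjusted p = 0.907), and *Psme2* was called lower with total counts (−0.93, adjusted p = 0.00584). Reads of *Psme2* and its near-identical copy *Psme2b*, which was at 0.545 to 1.45 CPM, may have been split, so that both values are uncertain.

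*Psme4*, the single-chain activator PA200, was at 206, 183 and 212 CPM in WT mice and at 305, 305 and 273 CPM in LKO mice. It was higher by 1.47-fold without overlap (log2 0.55, SE 0.15, adjusted p = 0.0197), whereas with total counts the difference was −0.31 (adjusted p = 0.127). *Psmf1*, the inhibitor PI31, was at 14, 12.7 and 14.5 CPM in WT mice and at 10.2, 8.57 and 9.04 CPM in LKO mice, 1.49-fold lower without overlap (log2 −0.57, SE 0.15, adjusted p = 0.0178; with total counts −1.42, adjusted p = 0.000552). The calls of *Psme1*, *Psme4* and *Psmf1* did not outlast each omission of a mouse. *Psme1* lost its call without WT mouse 1 (adjusted p = 0.0539), WT mouse 3 (0.0505) or LKO mouse 1 (0.0527). *Psme4* lost it without any of the 3 WT mice (0.0623 to 0.0823) or LKO mouse 1 (0.0510), and *Psmf1* without WT mouse 1 (0.0679), WT mouse 3 (0.0756) or LKO mouse 2 (0.0519), and also after correction for GC content and gene length together (0.0591). The number of members called lower fell from 8 to 3 without WT mouse 1, to 4 without WT mouse 3 and to 5 without LKO mouse 1 or 2. Over all genes tested, 20.5% were called lower with all mice. This share was 15.1% without WT mouse 1, 15.1% without WT mouse 3, 17.9% without LKO mouse 1 and 15.4% without LKO mouse 2. In each of the 6 omissions 20 to 22 members were called higher, beside 14.5 to 17.9% of all genes tested.

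Since the classes differed, their makeup within each library was also compared, in TPM, which corrects for gene length. The alpha ring made up 21.9, 22.5 and 22.3% of the summed proteasome TPM in WT mice against 32.8, 34.3 and 34.7% in LKO mice. The immunoproteasome share was 2.79, 3.43 and 3.09% against 0.742, 0.753 and 0.496%, and that of *Psme1* and *Psme2* together was 5.93, 5.67 and 5.88% against 2.33, 2.29 and 1.58%. None of these 3 shares overlapped between the genotypes. The ATPase share overlapped, at 13.4 to 13.8% in WT mice against 11.4 to 14% in LKO mice.

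The mean TPM per core subunit was 192, 202 and 196% of that per regulatory particle subunit in WT mice against 287, 349.5 and 262% in LKO mice. All members together took 0.520% ± 0.0339 of the protein-coding TPM in WT against 0.566% ± 0.0501 in LKO mice (SD, n = 3 each), and these ranges overlapped (0.483 to 0.549% and 0.518 to 0.618%). The core particle alone took 0.253 to 0.287% in WT mice against 0.333 to 0.405% in LKO mice, without overlap. As a share of all TPM the members took 0.334 to 0.362% in WT mice against 0.250 to 0.253% in LKO mice, lower without overlap, while the protein-coding share of all TPM also differed between the genotypes.

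Subunits that enter the particle in equal numbers were also less even in LKO mice. The coefficient of variation of TPM across the 14 constitutive core subunits was 31.7 to 32.0% in WT mice against 49.3 to 64.3% in LKO mice, and across the 17 regulatory particle subunits it was 43.4 to 44.5% and 99.3 to 114%. The highest subunit of the beta ring was 2.07 to 2.27-fold above the lowest in WT mice against 8.75 to 18.0-fold in LKO mice, where *Psmb2* was the lowest in each of the 3 mice (17 to 24.6 TPM, against 94.2 to 104 TPM in WT mice). Neither measure overlapped between the genotypes. This spread was not measured for other sets of genes, and TPM are not corrected for GC content. *Psmc6* was the highest regulatory particle subunit in each LKO mouse. Its log2 fold change was 2.43 with TMM and 1.53 after correction for GC content and gene length together.

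**Figure D4:**
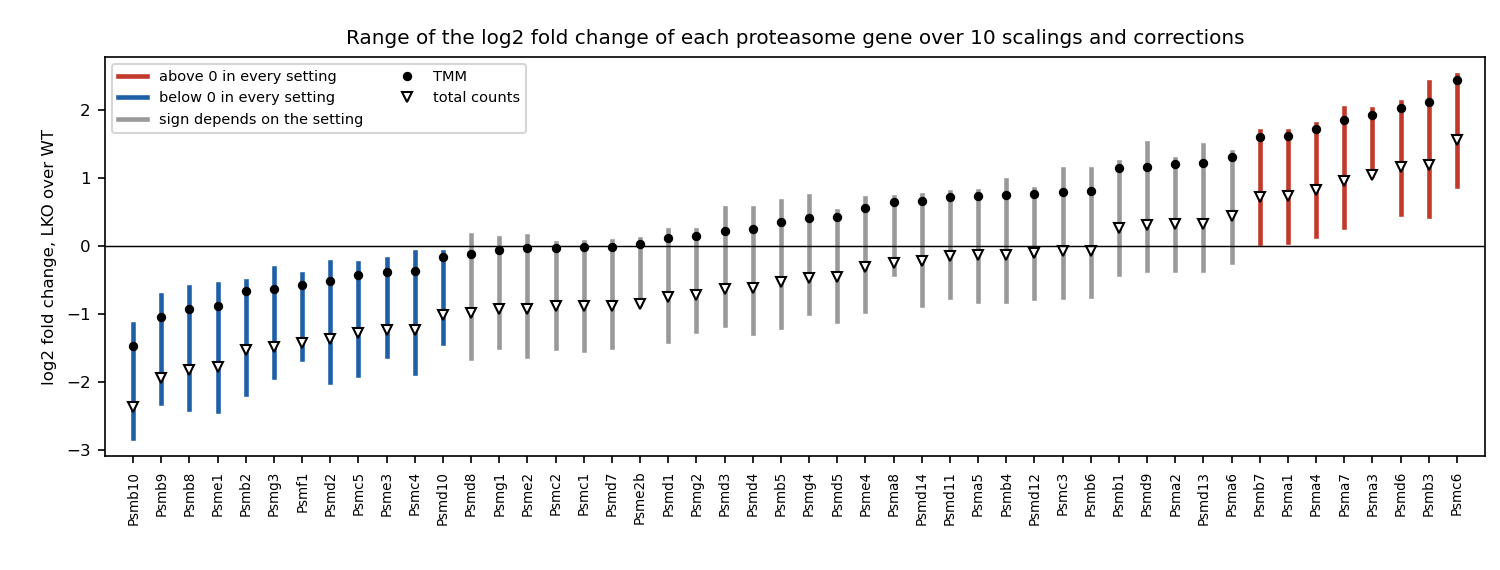
Range of the LKO over WT log2 fold change (y axis) of each of the 48 members over 10 scalings and corrections, with dots for TMM and triangles for total counts. The bars of 8 members lie above 0, those of 12 below 0, and those of 28 cross it. The order from *Psmb10* at the left to *Psmc6* at the right is that of the TMM values.

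Transcript GC content differed between members called in opposite directions. Its median was 47.1% in the 21 called higher, 55.1% in the 8 called lower and 49.8% in the 19 called neither way. Across genes, which are not independent replicates and share their libraries, the Spearman correlation of GC content and log2 fold change was −0.43 over the 48 members and −0.29 over 13484 protein-coding genes. After a smooth correction for GC content, chosen after seeing the data, 21 members were called higher and 5 lower, beside 17.7% and 19.6% of 16389 genes. The 13 of 14 constitutive core genes called higher included *Psmb5* (log2 0.66, adjusted p = 0.00931), *Psmb2* was still called lower (−0.52, adjusted p = 0.0120), and 2 of 3 immunoproteasome genes were called lower. The calls lost were those of *Psmb8*, *Psmd2*, *Psme1* (adjusted p = 0.102), *Psmg3* (0.219), *Psme4* (0.326), *Psmd12* (0.0576) and *Psmd14* (0.173). Besides *Psmb5*, calls were gained by *Psmd4* (log2 0.56, adjusted p = 0.0116) and *Psmg4* (0.73, adjusted p = 0.0481), both higher. *Psmd10* was newly called lower (−0.60, adjusted p = 0.0234). Why the TMM factors and the GC trend differed between genotypes was not tested. For relative gene length the same correlation was −0.01 over the members and −0.11 over protein-coding genes.

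**Figure D5:**
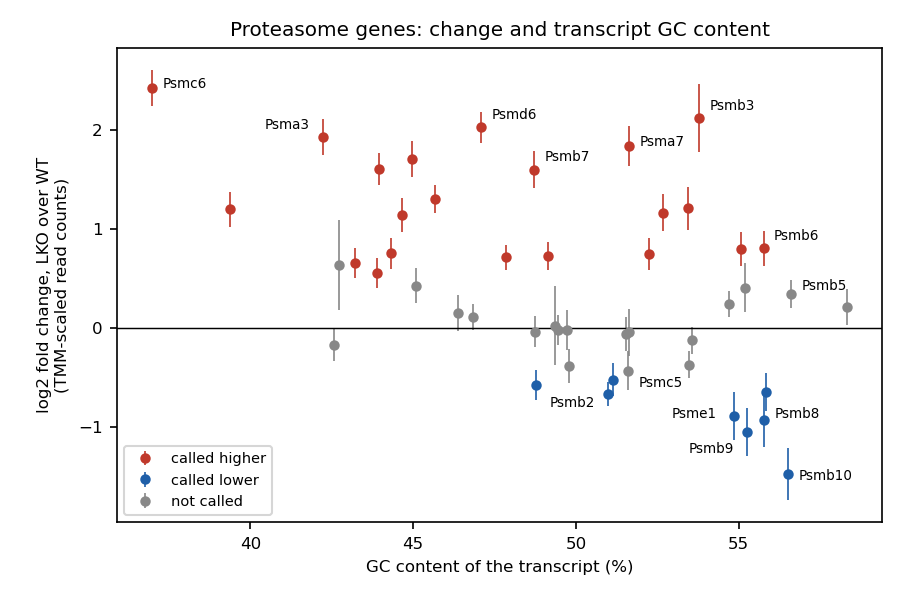
LKO over WT log2 fold change (y axis, TMM-scaled counts, bars show 1 SE, n = 3 mice per genotype) of the 48 members against the GC content of their transcripts (x axis, %). The median GC content is 47.1% for the 21 members called higher and 55.1% for the 8 called lower.

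Genes that work with the proteasome without a Psm symbol were read from a list of 35, of which 15 were called higher and 9 lower, with a median of 0.40, beside 19.6% and 20.5% of all genes tested. With total counts 2 were called higher and 18 lower, beside 6.26% and 51.4%. Among the 7 other subunits, assembly and bound factors, 6 were called higher and 0 lower, beside 19.6% and 20.5% of all genes tested. With total counts 1 of these 7 was called higher and 1 lower, with a median of −0.13, beside 6.26% and 51.4%. After correction for GC content and gene length together, 2 were called higher and 1 lower, beside 17.2% and 17.9%. *Sem1*, a small lid subunit, was at 31.8, 26.3 and 30.4 CPM in WT mice and at 83.8, 95.1 and 79.3 CPM in LKO mice (log2 1.54, SE 0.15, adjusted p = 0.000315; with total counts 0.67, adjusted p = 0.00439), but it was not called after correction for GC content and gene length together (−0.18, adjusted p = 0.355). *Pomp*, the assembly factor of the beta ring, was at 57.4, 51.5 and 55.5 CPM in WT mice and at 114, 130 and 104 CPM in LKO mice (log2 1.08, SE 0.15, adjusted p = 0.000923; with total counts 0.21, and 0.34 with adjusted p = 0.0515 after that correction). Both were higher in each LKO mouse than in any WT mouse. *Adrm1*, a ubiquitin receptor of the base, was at 9.92, 8.93 and 8.40 CPM in WT mice and at 11.3, 13.4 and 16.3 CPM in LKO mice, also without overlap (log2 0.59, SE 0.18, adjusted p = 0.0313; with total counts −0.28). The call of *Adrm1* was lost without any of the 3 WT mice (adjusted p = 0.0559 to 0.119) and without LKO mouse 2 (0.0689) or LKO mouse 3 (0.0773).

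Of 7 genes that control proteasome genes, 4 were called lower and 1 higher, beside 20.5% and 19.6% of all genes tested. *Nfe2l1*, the transcription factor that induces proteasome genes when the proteasome is inhibited, was at 54.3, 42.8 and 50.8 CPM in WT mice and at 29.6, 25.6 and 28.6 CPM in LKO mice. It was 1.77-fold lower without overlap (log2 −0.82, SE 0.15, adjusted p = 0.00312; with total counts −1.67, adjusted p = 0.000228). The call was lost after correction for GC content and gene length together (−0.31, adjusted p = 0.125). Of the 6 ubiquitin and E1 genes, 2 were called higher and 2 lower, beside 19.6% and 20.5% of all genes tested. *Rps27a*, which encodes ubiquitin fused to a ribosomal protein, was at 117, 122.6 and 145 CPM in WT mice and at 459, 578 and 489 CPM in LKO mice (log2 1.99, SE 0.18, adjusted p = 0.000272; with total counts 1.11, adjusted p = 0.000459).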

How the data were processed

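The authors sequenced 1 library from the liver of each of 3 WT and 3 LKO mice, and the genotype given in the labels set the groups. The labels name 1 μg of total RNA and an mRNA kit, the methods 0.5 μg and a total RNA kit with rRNA removal. The table the authors deposited gives raw read counts, FPKM and TPM per gene, estimated by StringTie on mm10. The submitters' processing notes list StringTie 2.1.3b, HISAT2 2.1.0 and Bowtie2 2.3.4.1. The deposited FPKM entered only the relative gene length (count over FPKM), and the deposited TPM entered the ratios, shares and limma tests.

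The filter of the study's methods, at most 1 zero count among 6 libraries, kept 18636 genes. edgeR 4.0.16 (R 4.3.3) was used for TMM scaling and a two-sided quasi-likelihood test of genotype; p-values were adjusted over these genes by the Benjamini-Hochberg method and called under 0.05. CPM are TMM-scaled. Single ratios were tested with a two-sided exact permutation test (scipy 1.17.1). Alternatives comprised DESeq2 1.42.0 and its size factors, exactTest of edgeR, upper-quartile scaling, total counts, protein-coding genes only, 2 other filters, limma 3.58.1 on log2(TPM + 1) and log2(TPM + 0.1), a lowess correction (span 0.3) for gene length, the replicate number as a block and leaving out each mouse. Corrections for GC content were added after seeing the data. The procedures were tested on simulated counts. RefSeq GRCm38.p6 gave coordinates, promoter windows and sequences.

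The members, gene lists and classes were chosen with earlier results of these data known. Genes named with values in each mouse are the catalytic subunits, the members with the highest and lowest log2 fold change of each class of 4 or more, members called against their class, members not tested, and of the other lists the called genes with the largest rise and fall and *Nfe2l1*, *Pomp*, *Adrm1* and *Sem1*; *Psma8*, *Psme2*, *Psme2b*, *Tap1*, *Ifng* and other genes named without values in each mouse were added after their values were seen. Results for some single genes and motifs are not reported here. The list symbols *Paaf1* and *Tf* were not matched. Total counts were 45934632 to 59576437 per library, and n = 3 mice per genotype limits each comparison.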

Additional observations from a re-analysis of the deposited data

How the results depend on the processing

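The largest moves came with total counts, which change scaling alone, and with limma on TPM, which changes test, unit and scaling together. With total counts, limma on log2(TPM + 1), limma on TPM rescaled to protein-coding genes and limma on log2(TPM + 0.1), in this order, 9, 3, 8 and 3 members were called higher and 24, 37, 26 and 36 lower, beside 6.26, 2.43, 5.49 and 2.51% of all genes tested called higher and 51.4, 71.5, 52.5 and 72.6% lower, and the median log2 fold change of the members was −0.51, −1.05, −0.57 and −1.18, beside −0.90, −0.79, −0.56 and −1.34 for all genes tested. Under the same 4 settings 2, 1, 2 and 1 of the companion genes were called higher and 18, 28, 17 and 28 lower, and 17 antigen processing and interferon genes were called lower in each. The sign turned for *Psmb5* (−0.53, −1.19, −0.61 and −1.21), *Psmb6* (−0.074, −0.74, −0.15 and −0.75), *Psma5* (−0.14, −0.80, −0.22 and −0.82), *Psmg4* (−0.48, −0.99, −0.53 and −1.16), *Psme4* (−0.31, −0.96, −0.38 and −0.98) and *Adrm1* (−0.28, −0.89, −0.38 and −0.99), and under the 2 limma settings without rescaling for *Pomp* (−0.47 and −0.47) and *Sem1* (−0.00098 and −0.0010). In TPM, 5 members lay above WT mice in all LKO mice, 37 below and 6 overlapped, where 2.98% and 74.9% of all genes tested did so.

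The gene length correction turned *Psmb5* to −0.14 and *Psmg4* to −0.31 and gave a member median of 0.25; with GC content as well, *Psmg4* was −0.16, *Sem1* −0.18, the median 0.087 and 5 companions were called lower. The GC content correction gave a median of 0.24 and 5 members called lower, and upper-quartile scaling a median of 0.46. When each mouse was left out, 20 to 22 members were called higher and 3 to 8 lower, with a median of 0.24 to 0.43. In these omissions 14.5 to 17.9% of all genes tested were called higher and 15.1 to 19.8% lower. Of the companions 11 to 14 were called higher and 5 to 11 lower, and 10 to 11 antigen processing and interferon genes were called lower and 0 higher. In the same omissions the log2 ratio of LKO over WT ranged from −1.51 to −1.09 for *Psmb8* over *Psmb5*, from −1.99 to −1.59 for *Psmb9* over *Psmb6* and from −3.27 to −2.92 for *Psmb10* over *Psmb7*.

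The labels do not say that a replicate number marks a shared litter or animal. Deviations of same-numbered mice correlated at 0.044, −0.0137 and −0.0783. With 3 mice per genotype these values cannot tell whether same-numbered mice shared a litter or a batch. With the number as a replicate block, 20 members were called higher and 7 lower, with a median of 0.36. The block with the gene length correction gave 18 higher and 7 lower, a median of 0.26, 5 companions called lower, −0.14 for *Psmb5* and −0.32 for *Psmg4*, and the block with the GC content correction 19 higher, 3 lower, a median of 0.25 and 5 companions called lower.

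Over the 19 named members and 23 alternatives, 350 of 437 values kept direction and side of the threshold, 50 lost the call, 12 gained it and 25 changed sign, among them no immunoproteasome subunit. DESeq2, exactTest, DESeq2 size factors and a minimum of 10 counts in every library changed none of them. The cause of these shifts was not tested. The counts of *Psmb11*, *Psmc3ip*, *Psma8* and *Psme2b* were low or 0. Whether this reflects sequencing depth or a low level of these mRNAs was not tested.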
